A study of Mus musculus with 47 samples.

Results

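The genes of cholesterol synthesis described here are Hmgcs1, Idi1, Fdft1, Sqle, Cyp51, Dhcr7 and Insig1, 7 of the 55416 genes in the tables of counts from the brains of 3xTg mice. They were taken by gene symbol and Ensembl identifier, and each was followed over the 4 diets, with males and females apart. All 7 passed the filter on low counts in both sexes. The list holds 6 enzymes of synthesis and 1 regulator, Insig1, and no gene of cholesterol uptake. RNA was sequenced after 9 months on an amino acid-defined diet that began at 6 months of age, so that the mice were 15 months old at collection. The diets were the Control diet and diets low in isoleucine (IleR), leucine (LeuR) or valine (ValR). Every group, Control included, was homozygous for the 3xTg transgenes, the human genes tauP301L, APPSwe and PS1M146V that are linked to familial dementia. Of males there were 4 libraries on the Control diet, 3 on IleR, 3 on LeuR and 4 on ValR. Of females there were 6, 5, 6 and 6 in the same order of diets. A library is called by its diet and its labelled number, such as ValR 12. Where nothing says otherwise each library is taken as 1 mouse, and p-values measure the spread between these libraries. No non-transgenic mice are in the labels, so each comparison is between diets within this 1 model of AD.

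Cholesterol is built from acetyl-CoA through mevalonate, isoprenoids, squalene and lanosterol. The transcription factors of the SREBP family drive the genes of this route when sterol in the endoplasmic reticulum is low, and Insig proteins hold SREBP back when sterol is plentiful. The brain makes nearly all of its own cholesterol because lipoproteins of the blood do not cross the blood-brain barrier, with oligodendrocytes using it for myelin and astrocytes passing it to neurons. Hmgcs1 makes HMG-CoA early in the route, Idi1 interconverts the isoprenoid building blocks, and Fdft1 is the squalene synthase that commits isoprenoids to sterols. Sqle adds oxygen to squalene, Cyp51 demethylates lanosterol, and Dhcr7 carries out the reduction that yields cholesterol. Insig1 is both a brake on SREBP and one of its target genes.

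The genes lie apart in the genome build GRCm38, all as protein-coding genes of GENCODE M21. Hmgcs1 (ENSMUSG00000093930) is at chr13:119690379-119708260 on the plus strand. Idi1 (ENSMUSG00000058258) is at chr13:8885501-8892451 on the plus strand. Fdft1 (ENSMUSG00000021273) is at chr14:63145150-63179578 on the minus strand. Sqle (ENSMUSG00000022351) is at chr15:59315077-59331192 on the plus strand. Cyp51 (ENSMUSG00000001467) is at chr5:4081145-4104746 on the minus strand. Dhcr7 (ENSMUSG00000058454) is at chr7:143823145-143848410 on the plus strand. Insig1 (ENSMUSG00000045294) is at chr5:28071363-28078662 on the plus strand. No exon of another gene overlaps them on their own strand. On the opposite strand, exons of Gm48342 share 557 bases with Hmgcs1, exons of Gm48574 share 323 with Idi1, exons of Ctsb share 774 with Fdft1 and exons of Akap9 share 166 with Cyp51. The libraries are described as stranded, but whether the counting used strand is not given in the sources used here. The expected count of Idi1 was not a whole number in 35 of the 37 libraries, which means that reads were shared with another gene, and its values are uncertain for that reason. Fdft1 had such values in 2 libraries and the other 5 genes in none.

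Promoter windows of 300 bases, 250 before to 50 after the start, were matched in RefSeq (GRCm38.p6) for 5 of the 7 genes. Sqle and Fdft1 had no entry, and Dhcr7 had 3 windows, which are not printed. The 4 windows below are shown because these genes are members of a group that is known to share control by sterol. Capitals mark the CCAAT box, read on either strand as CCAAT or ATTGG, and in Hmgcs1 also the sterol regulatory element searched as TCACNCCAC. The windows are chr13:119690101-119690400 (plus strand) for Hmgcs1, chr13:8885356-8885655 (plus strand) for Idi1, chr5:4104648-4104947 (minus strand) for Cyp51 and chr5:28071162-28071461 (plus strand) for Insig1.
Hmgcs1: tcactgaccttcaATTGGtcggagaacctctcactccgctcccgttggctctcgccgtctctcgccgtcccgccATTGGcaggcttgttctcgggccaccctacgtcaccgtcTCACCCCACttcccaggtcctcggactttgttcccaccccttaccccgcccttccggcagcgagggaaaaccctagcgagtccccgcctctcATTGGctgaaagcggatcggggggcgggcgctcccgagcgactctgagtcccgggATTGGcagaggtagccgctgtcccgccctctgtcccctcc
Idi1: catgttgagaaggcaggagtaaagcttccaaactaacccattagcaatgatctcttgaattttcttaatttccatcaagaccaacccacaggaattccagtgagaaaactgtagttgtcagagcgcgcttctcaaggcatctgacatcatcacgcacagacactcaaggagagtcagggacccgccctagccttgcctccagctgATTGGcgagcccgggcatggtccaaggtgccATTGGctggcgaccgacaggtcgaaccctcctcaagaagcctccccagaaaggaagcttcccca
Cyp51: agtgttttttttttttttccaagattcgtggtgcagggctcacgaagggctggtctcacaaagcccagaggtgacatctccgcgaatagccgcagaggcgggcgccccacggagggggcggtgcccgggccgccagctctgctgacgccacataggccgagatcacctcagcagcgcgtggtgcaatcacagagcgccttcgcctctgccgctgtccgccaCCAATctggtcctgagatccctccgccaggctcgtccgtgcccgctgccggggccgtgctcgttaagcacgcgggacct
Insig1: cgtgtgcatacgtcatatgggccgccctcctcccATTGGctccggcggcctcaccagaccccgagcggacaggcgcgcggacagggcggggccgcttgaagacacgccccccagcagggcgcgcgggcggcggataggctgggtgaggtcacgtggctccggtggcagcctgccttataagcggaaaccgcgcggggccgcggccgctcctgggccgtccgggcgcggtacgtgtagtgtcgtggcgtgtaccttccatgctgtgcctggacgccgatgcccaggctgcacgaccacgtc

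The sterol regulatory element TCACNCCAC was found in 1 of the 5 genes with a window, in Hmgcs1 as TCACCCCAC at position -137 from the start, and in 1.24% of all 32851 windows. The shorter form CACCCCAC, which overlaps it there, was found in the same gene and in 2.87% of all windows. The CCAAT box was found in 5 of the 5 genes, in 5 of their 7 windows and in 37.4% of all windows, with 4 matches in Hmgcs1 and 2 in Idi1. The E-box CACGTG was found in Insig1 and Dhcr7 and in 7.15% of all windows. The GC box GGGCGG was found in 5 of the 5 genes, in 6 of their 7 windows and in 35.7% of all windows. Each motif was searched on both strands, and a match describes letters, not a bound site.

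Before the diets are compared, the male libraries need describing, since they differed in brain region content by diet. The summed level of 9 cerebellum markers was 45.2 to 107 CPM (counts per 1e+06, after TMM scaling) in male Control, 1140 to 2980 in IleR, 258 to 1260 in LeuR and 1300 to 3740 in ValR. The summed level of 8 brainstem and spinal cord markers was 0.559 to 9.42 CPM in male Control against 69 to 252 in IleR, 2.65 to 613 in LeuR and 114 to 639 in ValR, and Hoxb5, Hoxa5 and Hoxc4 were at 0 in every male Control library. The 10 forebrain markers moved the other way, from 384 to 1410 CPM in Control to 140 to 272 CPM over the restricted males. A hindbrain score, the mean log2 CPM of the cerebellum, brainstem and spinal cord markers minus that of the forebrain markers, was -7.55 to -4.68 in male Control, 1.21 to 3.24 in IleR, -3.14 to 3.22 in LeuR and 3.26 to 4.75 in ValR. In males the restricted diets did not overlap Control in this score, so diet and region content cannot be told apart there. In females the 4 diets overlapped, with scores from -7.40 to 3.70. Markers of neurons were present in every library, at a summed 3420 to 5850 CPM, which matches the labelled tissue, brain. The total count per library was 12682687 to 25722333 in males and 10672599 to 21370973 in females, and the lowest expected count of any of the 7 genes in a library was 259.

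Compared per length, Hmgcs1 was the most abundant of the 7 genes and Dhcr7 the least abundant in both sexes. In males, the median level per kilobase of exon was 50.2 CPM for Hmgcs1, 29.7 for Insig1, 16.8 for Fdft1, 15.0 for Cyp51, 14.9 for Idi1, 10.3 for Sqle and 5.16 for Dhcr7. In females it was 52.2 CPM for Hmgcs1, 22.95 for Insig1, 18.6 for Fdft1, 13.0 for Idi1, 12.5 for Cyp51, 10.7 for Sqle and 4.77 for Dhcr7. Cyp51 and Idi1, next to each other in that order, changed places between the sexes, and their medians differed by less than the range of either gene over libraries. Across the libraries of a sex, the ratio of the highest to the lowest level was smallest for Dhcr7 in males (25.0 to 37.5 CPM) and largest for Hmgcs1 in females (129 to 363 CPM, or 2.82 times).

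**Figure D1:**
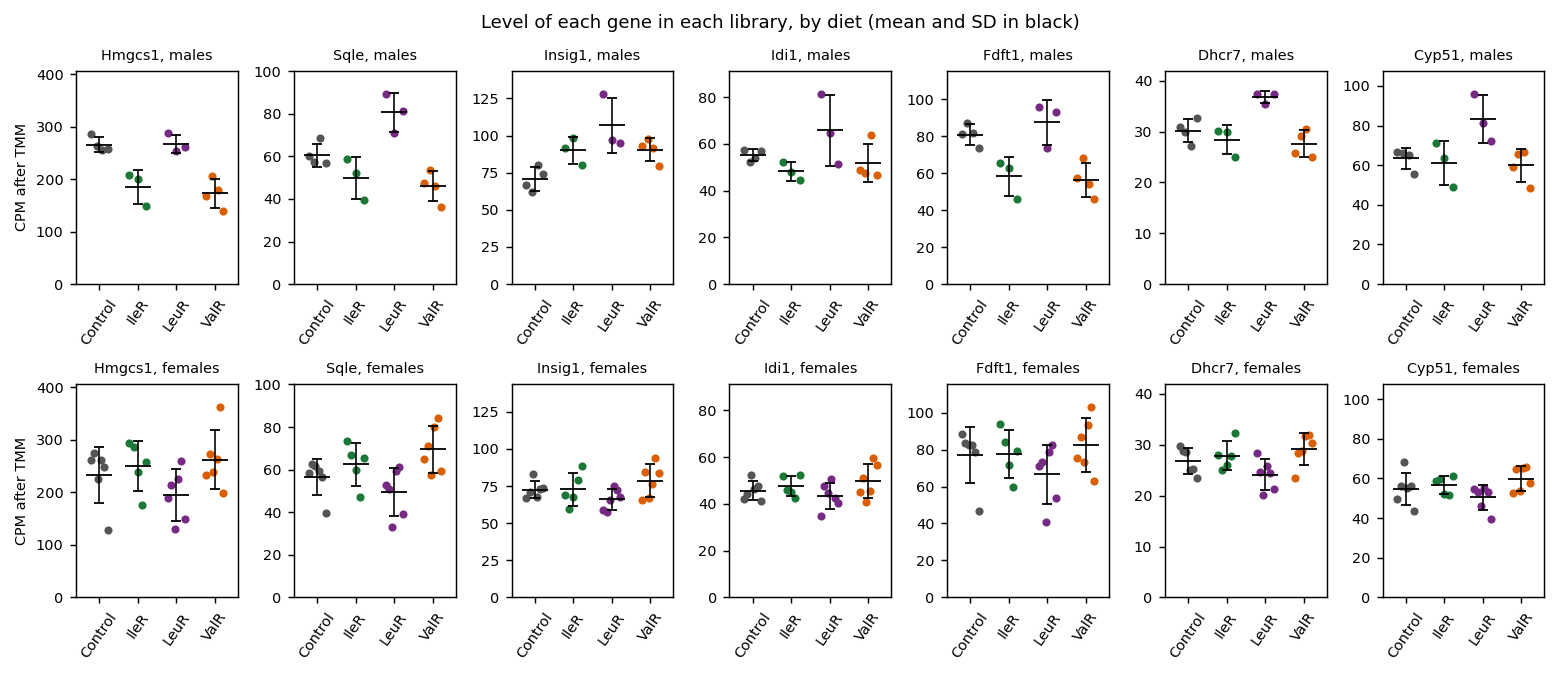
Level of each gene in CPM after TMM scaling (y axis, starting at 0) by diet (x axis), with males above and females below; each point is 1 library and black bars give the mean and SD. In males, Hmgcs1 and Fdft1 sit lower in IleR and ValR than in Control and Insig1 sits higher in LeuR, while the female diets overlap for all 7 genes.

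In males, the 6 enzymes had log2 fold changes below 0 in IleR and in ValR against Control and Insig1 had values above 0, and in LeuR all 7 genes were above 0. Hmgcs1, at the entry of the route, and Fdft1, at the entry of the sterol branch, fell in IleR and in ValR against Control, and their LeuR levels overlapped Control. Insig1, the brake, rose in LeuR and in ValR. Sqle, Cyp51, Dhcr7 and Idi1 did not pass the test against Control under any diet.

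The Hmgcs1 level in male Control was 287, 262, 256 and 257 CPM. It was 208, 201 and 149 CPM in IleR, 287, 254 and 262 CPM in LeuR and 167, 206, 180 and 139 CPM in ValR. Every IleR and ValR library was below every Control library, and the LeuR libraries overlapped Control. The log2 fold change against Control was -0.52 ± 0.14 (SE) in IleR (edgeR adjusted p = 0.0230), 0.01 ± 0.14 in LeuR (edgeR adjusted p = 0.971) and -0.62 ± 0.13 in ValR (edgeR adjusted p = 0.00339). These values are from the quasi-likelihood test of edgeR, adjusted over all genes tested by the Benjamini-Hochberg method, and a gene is said to have passed, risen or fallen when this value is below 0.05. The fall in ValR passed in 14 of the 14 fits that left out 1 male library (edgeR adjusted p of 0.00177 to 0.0129), and that in IleR in 12 of them, not without Control 1 or IleR 17 (edgeR adjusted p of up to 0.0995).

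Fdft1 followed Hmgcs1. Its level was 81.1, 87.0, 81.9 and 73.6 CPM in Control, 65.6, 63.1 and 46.2 CPM in IleR, 95.8, 73.5 and 93.3 CPM in LeuR and 57.4, 68.2, 54.3 and 46.0 CPM in ValR. The IleR and ValR libraries were again all below Control. The log2 fold change was -0.47 ± 0.15 in IleR (edgeR adjusted p = 0.0474), 0.11 ± 0.15 in LeuR (edgeR adjusted p = 0.660) and -0.52 ± 0.14 in ValR (edgeR adjusted p = 0.0147). The fall in ValR passed in 14 of the 14 fits with 1 library left out, and that in IleR in 4 of them, with edgeR adjusted p-values of 0.0340 to 0.179 (it held without LeuR 20, LeuR 21, ValR 9 or ValR 12 and was lost without any of the other 10).

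Sqle, the enzyme after Fdft1, was at 60.0, 57.3, 68.4 and 56.7 CPM in Control, 58.6, 52.0 and 39.3 CPM in IleR, 89.5, 71.1 and 81.4 CPM in LeuR and 47.6, 53.5, 46.2 and 36.4 CPM in ValR. All LeuR libraries were above Control and all ValR libraries below it. The log2 fold change was 0.41 ± 0.15 in LeuR (edgeR adjusted p = 0.0895) and -0.40 ± 0.14 in ValR (edgeR adjusted p = 0.0507), so that neither passed. The ValR value lies beside the threshold and passed in 5 of 9 alternative analyses and without IleR 13, IleR 17 or ValR 9 (edgeR adjusted p of 0.0298 to 0.141 over the 14 fits).

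The later sterol enzymes Cyp51 and Dhcr7 differed little from Control in IleR and ValR and had higher values in LeuR. The Dhcr7 level was 30.9, 29.8, 27.2 and 32.6 CPM in Control and 37.5, 35.4 and 37.3 CPM in LeuR, with no overlap and a log2 fold change of 0.28 ± 0.10 (edgeR adjusted p = 0.0891). The Cyp51 level was 66.9, 66.3, 64.9 and 55.5 CPM in Control and 96.2, 81.5 and 72.2 CPM in LeuR, again with no overlap and with a log2 fold change of 0.39 ± 0.14 (edgeR adjusted p = 0.0962). For the other diets the log2 fold changes of these 2 enzymes lay between -0.13 and -0.05. Idi1 had log2 fold changes of -0.19 ± 0.15 in IleR, 0.26 ± 0.14 in LeuR and -0.09 ± 0.13 in ValR, with edgeR adjusted p-values of 0.277 to 0.684.

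In IleR and ValR, the Insig1 log2 fold changes were above 0 where those of Hmgcs1 and Fdft1 were below it. Its level was 66.9, 62.0, 80.1 and 74.1 CPM in Control, 91.8, 98.2 and 79.9 CPM in IleR, 128, 97.05 and 94.99 CPM in LeuR and 93.0, 97.8, 91.7 and 79.6 CPM in ValR. All LeuR libraries were above Control, while IleR and ValR each overlapped it at Control 4. The log2 fold change was 0.35 ± 0.13 in IleR (edgeR adjusted p = 0.0826), 0.59 ± 0.13 in LeuR (edgeR adjusted p = 0.0135) and 0.35 ± 0.12 in ValR (edgeR adjusted p = 0.0438). The rise in LeuR was lost without LeuR 19, at 0.44 with an edgeR adjusted p of 0.0730, and that in ValR passed in 4 of the 14 fits with 1 library left out (without Control 4, LeuR 19, LeuR 21 or ValR 12), with edgeR adjusted p-values of 0.0218 to 0.123, and in 4 of 9 alternative analyses, with values of -0.39 to 0.375. The value in IleR passed without Control 4 or without LeuR 19 (lowest edgeR adjusted p 0.0438).

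By count, 2 of the 7 genes fell in IleR against Control in males and none rose, where 8.68% of the 22197 genes tested fell, 6.63% rose and 15.3% passed in either direction. In LeuR, 1 of 7 rose and none fell, where 3.81% of all genes rose, 6.33% fell and 10.1% passed. In ValR, 1 rose and 2 fell, where 11.1% of all genes rose, 12.4% fell and 23.5% passed. At an unadjusted p under 0.05 in edgeR there were 3 of 7 in IleR (29.6% of all genes), 4 in LeuR (27.0%) and 4 in ValR (35.2%). The groups did not overlap for 2 genes that were lower in IleR (14.5% of all genes), for 4 that were higher in LeuR (8.21%) and for 3 that were lower in ValR (13.6%). The median log2 fold change of the 7 genes was -0.19 in IleR, 0.28 in LeuR and -0.13 in ValR, beside 0.04, 0.05 and 0.03 for all genes tested. These 3 comparisons share the 4 Control libraries.

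The region content described above moved with these results. With the hindbrain score as a covariate, none of the 7 genes passed in any of the 3 comparisons with Control (edgeR adjusted p of 0.602 or more, with 1, 0 and 1 genes at an unadjusted p under 0.05 in IleR, LeuR and ValR), and 0.0135%, 0.0496% and 0.0% of all genes passed in IleR, LeuR and ValR. The Hmgcs1 value was then -0.60 ± 0.33 in IleR and -0.72 ± 0.38 in ValR, of like size to the values without the covariate but with a larger error, while the Insig1 value was 0.10 ± 0.19 in LeuR (edgeR adjusted p = 0.936) and changed sign in IleR, to -0.28 ± 0.23, and in ValR, to -0.39 ± 0.27. For Idi1 the values became -0.81 ± 0.30 in IleR and -0.84 ± 0.35 in ValR, and for Cyp51 -0.45 ± 0.33 and -0.56 ± 0.38, all further below 0 than without the covariate. Because the male restricted diets did not overlap Control in the score, this fit cannot separate region content from diet. A value that kept its size, as for Hmgcs1, does not tell them apart. The mature oligodendrocyte markers were also at other levels, with a summed 4950 to 10300 CPM in male Control, 10900 to 15900 in IleR, 6920 to 19100 in LeuR and 10100 to 17300 in ValR, and 0 of their 12 genes passed in edgeR in the 3 comparisons (7, 8 and 6 had an unadjusted p under 0.05). With the mean log2 CPM of these markers as a covariate, 1 of the 7 genes passed in IleR, 0 in LeuR (1 at an unadjusted p under 0.05) and 3 in ValR, beside 7.76%, 2.0% and 18.1% of all genes. Those 3 in ValR were Hmgcs1, Fdft1 and Sqle (-0.52, edgeR adjusted p = 0.0322), while Insig1, at 0.20, did not pass (edgeR adjusted p = 0.217). Other cell markers moved in the same libraries. The 7 neuronal markers summed to 4000 to 5780 CPM in male Control. They summed to 3430 to 3830 in IleR, 3420 to 3810 in LeuR and 3640 to 4300 in ValR. Of them, 1 rose in each restricted diet, while 1 fell in IleR, 1 in LeuR and 2 in ValR. The 6 markers of precursor and newly formed oligodendrocytes summed to 149 to 167 CPM in Control and 123 to 178 in IleR. They summed to 157 to 204 in LeuR, where 1 rose, and 106 to 132 in ValR, where 2 fell. The summed level of 7 astrocyte markers was 1280 to 1870 CPM in male Control, 2160 to 2640 in IleR, 1490 to 2280 in LeuR and 2100 to 2680 in ValR, and 1 rose in IleR and 2 in ValR. Of 5 microglia markers 2 fell in IleR and 4 in ValR, with sums of 313 to 354 CPM in Control, 236 to 363 in IleR and 203 to 315 in ValR. The 5 blood markers summed to 2530 to 19600 CPM in LeuR and 581 to 4120 in Control, with 5 of 5 at an unadjusted p under 0.05 and 0 passing in edgeR. The part of these cells in the results was not tested. In RNA of a whole tissue, fewer cells of a type and less RNA per cell cannot be told apart. The count in IleR was 0 without Control 1 or IleR 17 and 1 without Control 3, Control 5, IleR 13, IleR 14, ValR 7 or ValR 10, and that in LeuR was 0 without LeuR 19 and 3 without LeuR 21.

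**Figure D2:**
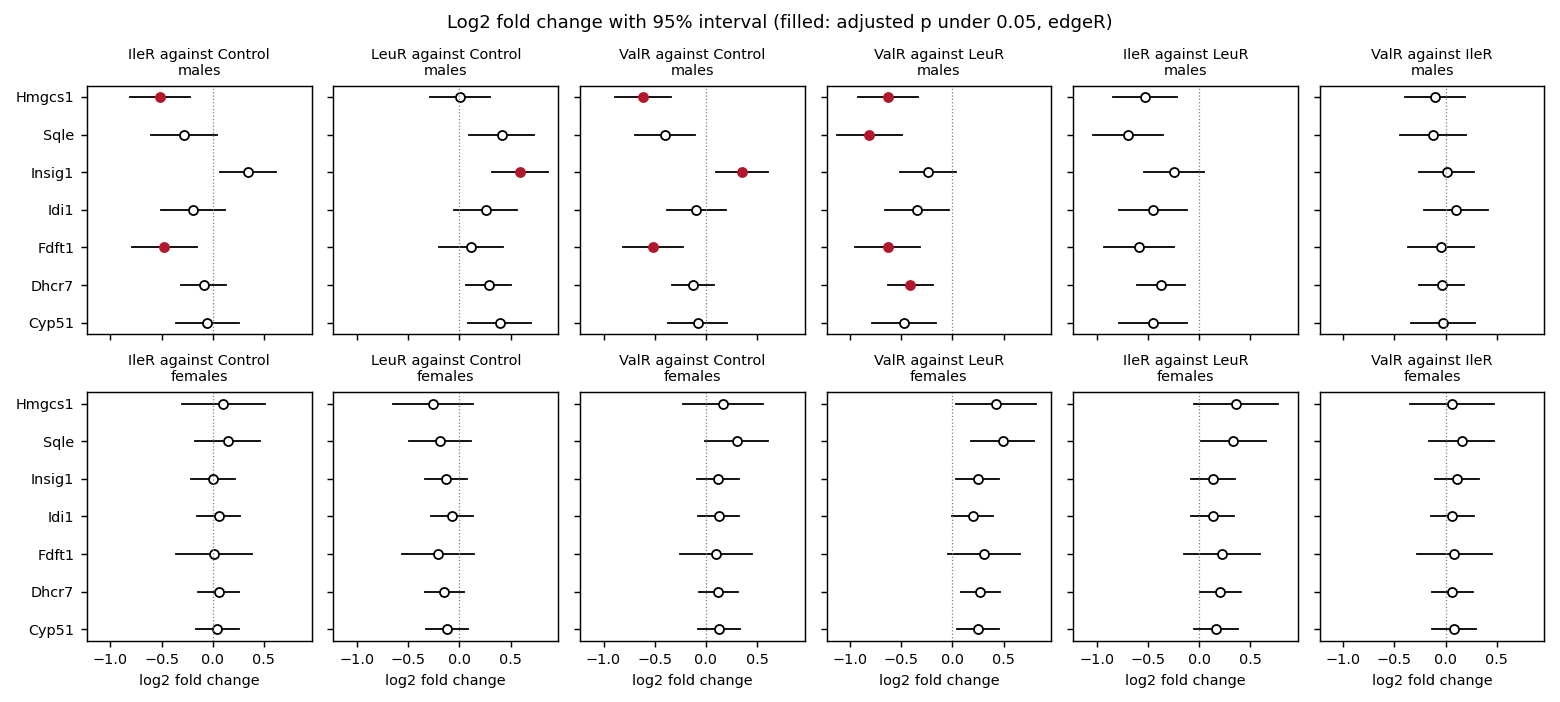
Log2 fold change (x axis) of each gene (y axis) in 6 comparisons of diets, with males above and females below; lines are 95% intervals and filled red points passed an adjusted p of 0.05 in edgeR. In males the 7 values of ValR against LeuR and of IleR against LeuR all lie below 0, and in females the 7 values of the same comparisons all lie above 0 with none filled.

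For each gene except Insig1, the widest difference in males was between LeuR and either ValR or IleR. For Insig1 it was between LeuR and Control. Sqle, Hmgcs1, Fdft1 and Dhcr7 were lower in ValR than in LeuR, and all 7 genes had values below 0 in that comparison. The log2 fold change of ValR against LeuR was -0.81 ± 0.15 for Sqle (edgeR adjusted p = 0.0481), -0.63 ± 0.14 for Hmgcs1 (edgeR adjusted p = 0.0481), -0.63 ± 0.15 for Fdft1 (edgeR adjusted p = 0.0491) and -0.41 ± 0.10 for Dhcr7 (edgeR adjusted p = 0.0495). The values for Cyp51, Idi1 and Insig1 were -0.47, -0.35 and -0.24 and did not pass. These 4 of 7 genes, with none higher, stood beside 1.03% of all genes that fell, 1.73% that rose and 2.75% that passed in either direction, and 6 of 7 had an unadjusted p under 0.05 in edgeR (23.9% of all genes). For 5 of the 7, the 4 above and Cyp51, every ValR library was below every LeuR library (8.47% of all genes). The median of the 7 was -0.47, beside -0.05 over all genes tested.

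The 4 adjusted p-values lie just under 0.05, and the count was 0 when only the 7 libraries of both diets were fitted (0.0% of 21073 genes) and 5 by DESeq2 (11.2% of all genes). It was also 0 without Control 1, Control 3, Control 5, IleR 14, LeuR 21, ValR 7, ValR 10 or ValR 12, 1 without LeuR 19 and 2 without IleR 13. The 6 markers of precursor and newly formed oligodendrocytes summed to 106 to 132 CPM in ValR and 157 to 204 CPM in LeuR. Of these markers 1 fell in edgeR, beside 1.03% of all genes, and their part was not tested. The hindbrain score was higher in every ValR library than in every LeuR library, at 3.26 to 4.75 against -3.14 to 3.22. With that score as a covariate the 7 values were -0.37 to -0.91, each with an unadjusted p under 0.05 and edgeR adjusted p-values of 0.140 to 0.194, and 0.0% of all genes passed.

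Against LeuR, the IleR males had lower values for all 7 genes as well. The log2 differences ran from -0.69 ± 0.16 for Sqle to -0.25 ± 0.14 for Insig1, with 6 of 7 at an unadjusted p under 0.05 (11.3% of all genes) and 0 of 7 passing in edgeR, where 0.0% of all genes passed. Sqle passed by DESeq2, with an adjusted p of 0.0258, as did 0.487% of all genes. The groups did not overlap for 5 of 7 genes, all lower in IleR, where 6.89% of all genes were lower with no overlap. ValR and IleR, by contrast, gave values close to each other, from -0.12 to 0.10, and none of the 7 had an unadjusted p under 0.05 in edgeR (2.83% of all genes had). The 95% interval of ValR against IleR was -0.39 to 0.19 for Hmgcs1 and -0.44 to 0.20 for Sqle, which leaves room for differences of that size.

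In females none of the 7 genes passed in any comparison in edgeR or in DESeq2, and in edgeR 0.0% of the 20344 genes tested passed in each. The mean level of each of the 7 genes was highest in ValR and lowest in LeuR. Hmgcs1 had a lowest, median and highest level of 129, 255 and 274 CPM in Control, 130, 202 and 261 CPM in LeuR and 198, 252 and 363 CPM in ValR, and its IleR levels were 295, 287, 238, 177 and 258 CPM. The diets overlapped for Hmgcs1, as they did for the other 6 genes in every comparison. Its log2 fold change against Control was 0.10 ± 0.20 in IleR, -0.26 ± 0.19 in LeuR and 0.17 ± 0.19 in ValR, with 95% intervals of -0.31 to 0.51, -0.65 to 0.13 and -0.22 to 0.56.

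Sqle had a lowest, median and highest level of 39.7, 58.9 and 62.8 CPM in female Control, 33.2, 51.8 and 61.25 CPM in LeuR and 57.35, 68.0 and 84.5 CPM in ValR. Its difference between ValR and LeuR, at a log2 value of 0.49 ± 0.15, was the one with the smallest p in females (unadjusted p = 0.00314, adjusted p = 0.816, both by edgeR). In ValR against LeuR the 7 values ran from 0.20 to 0.49 with a median of 0.27, and 5 of 7 had an unadjusted p under 0.05, as had 4.98% of all genes. In IleR against LeuR they ran from 0.13 to 0.36, and 2 of 7 had an unadjusted p under 0.05 (6.14% of all genes). Against Control none of the 7 had an unadjusted p under 0.05 in edgeR, beside 2.84% of all genes in IleR, 4.03% in LeuR and 3.82% in ValR, and in ValR against IleR none had (4.16%). The log2 fold changes against Control were 0.0049 to 0.15 in IleR, -0.26 to -0.07 in LeuR and 0.10 to 0.30 in ValR. Without the 6 female libraries with a hindbrain score above -2 (Control 29, Control 30, IleR 41, LeuR 45, LeuR 48 and ValR 36), the log2 ValR against LeuR values were 0.14 to 0.35, and 2 of 7 had an unadjusted p under 0.05. Over all 23 female libraries they were 0.19 to 0.46 when fitted beside the hindbrain score and 0.20 to 0.49 beside the oligodendrocyte score, and 6 of 7 had an unadjusted p under 0.05 with either (lowest edgeR adjusted p 0.155 and 0.787).

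The difference between the sexes in the response to diet was tested by itself, in 1 fit of all 37 libraries. None of the 7 genes passed for any diet in edgeR, where 0.0979% of 22465 genes passed for IleR, 0.00445% for LeuR and 4.25% for ValR. The smallest adjusted p-values in edgeR were those of Sqle for ValR (male minus female log2 change -0.72 ± 0.23, adjusted p = 0.0595) and Hmgcs1 for ValR (-0.80 ± 0.27, adjusted p = 0.0707). For LeuR, Insig1 differed by 0.74 ± 0.17 (edgeR adjusted p = 0.0972), and all 7 values were above 0. At an unadjusted p under 0.05 in edgeR the count was 1 of 7 for IleR, 4 for LeuR and 3 for ValR, beside 19.1%, 13.0% and 26.0% of all genes. By DESeq2, Insig1 passed for LeuR (1.41% of all genes), and Hmgcs1 and Sqle passed for ValR (10.4%). Without the 6 female libraries named above, Hmgcs1 (-0.71), Sqle (-0.63) and Fdft1 (-0.54) passed for ValR (edgeR adjusted p = 0.0157, 0.0218 and 0.0445), as did 9.77% of all genes. Every male library on a restricted diet had a higher hindbrain score than every male Control library, so region content and the sex difference cannot be told apart here. With the score as a covariate, the ValR values were -0.31 to 0.09 with none passing (lowest edgeR adjusted p 0.783), and Sqle (0.94) and Dhcr7 (0.59) passed for LeuR (edgeR adjusted p = 0.0333 and 0.0415), as did 0.864% of all genes.

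Within the female diets, the levels of 5 of the 6 enzymes were lower in libraries of higher hindbrain score, as were those of many other genes. After diet means were removed, Pearson's r between the score and log2 CPM over the 23 female libraries was -0.870 for Fdft1 (rho = -0.789), -0.851 for Hmgcs1 (rho = -0.804) and -0.805 for Sqle (rho = -0.659). For these 3 the adjusted permutation p of r was at most 4.67e-05 and that of rho at most 0.00184, and r was -0.801, -0.815 and -0.734 without the 2 libraries farthest from the median score. Dhcr7 (r = -0.547, rho = -0.503) and Cyp51 (r = -0.530, rho = -0.403) followed less closely, each with an adjusted permutation p of 0.0120 for r, while that of rho was 0.0282 for Dhcr7 and 0.0808 for Cyp51. Insig1 (r = 0.181, rho = 0.291) and Idi1 (r = -0.0438, rho = -0.0909) did not pass, with adjusted permutation p-values of 0.476 and 0.843 for r. Among the 13887 genes whose mean log2 CPM was 1 or more in females, 5.68% had an r at or below that of Fdft1 and 7.5% one at or below that of Hmgcs1. For Sqle the share was 11.5%, for Dhcr7 27.5% and for Cyp51 28.4%, so that such a relation is not particular to these enzymes. Each family held 7 relations per sex, adjusted by the Benjamini-Hochberg method. The permutations did not allow for the diet means removed, so that their p-values are too small.

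The female libraries of highest score show the size of this. Hmgcs1 was at 130 CPM in LeuR 45 (score 3.70), 198 CPM in ValR 36 (score 0.543), 150 CPM in LeuR 48 (score -0.108) and 129 CPM in Control 30 (score -0.204). Insig1 was at 65.7, 83.5, 67.85 and 73.8 CPM in the same 4 libraries, within the range of the others. The male IleR and ValR libraries, with scores of 1.21 to 4.75, held 139 to 208 CPM of Hmgcs1, and the 3 male LeuR libraries, with scores of -3.14 to 3.22, held 254 to 287 CPM. The male and female values come from tables that were scaled apart and are set side by side without a test.

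In males, only Insig1 had an adjusted permutation p of r under 0.05 (r = 0.707, adjusted permutation p = 0.0214, r = 0.555 without 2 libraries), and its rho of 0.640 did not pass (adjusted permutation p = 0.110, n = 14 libraries). Insig1 was also the gene that followed the oligodendrocyte score in males, with r = 0.704 and rho = 0.732 (adjusted permutation p = 0.0372 and 0.0283, r = 0.729 without 2 libraries), while in females no gene did (smallest adjusted permutation p = 0.502). The permutations did not allow for the diet means removed from the 14 male libraries. These p-values are therefore too small, and those not far under 0.05 are uncertain.

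**Figure D3:**
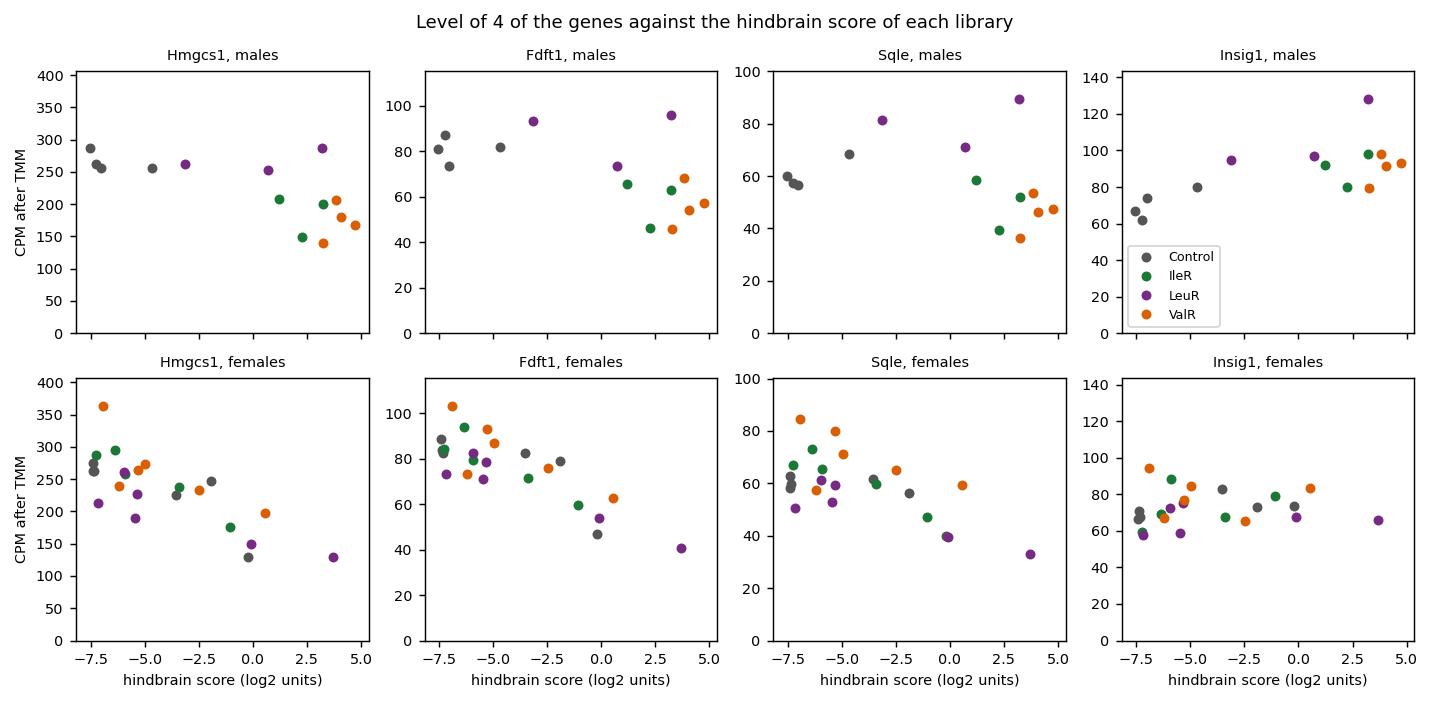
Level in CPM after TMM scaling (y axis) of Hmgcs1, Fdft1, Sqle and Insig1 against the hindbrain score of each library in log2 units (x axis), with males above, females below and points coloured by diet. In females the first 3 genes are lower toward the right (r of -0.870 to -0.805) and Insig1 is not, and in males the LeuR points of those 3 genes lie above all IleR and ValR points.

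Some of the 7 genes also varied together from library to library within a diet. Over the 21 pairs, Pearson's r after removal of diet means ran from 0.116 to 0.899 in males and from 0.0336 to 0.967 in females, and 9 pairs in males and 12 in females had an adjusted permutation p of r under 0.05. Of all pairs among genes whose mean log2 CPM was 1 or more, 6.32% in males and 15.8% in females had an r at or above the lowest of those pairs (0.651 and 0.478). The closest pairs were Sqle with Fdft1 (r = 0.967, rho = 0.920) and Hmgcs1 with Fdft1 (r = 0.961, rho = 0.910) in females, where r was 0.951 and 0.942 without 2 libraries. Their permutation p was 1e-05, the smallest that 100000 permutations can give, or 5.25e-05 when adjusted over the 21 pairs. In males Sqle with Fdft1 was again the closest (r = 0.899, rho = 0.851, r = 0.797 without 2 libraries, adjusted permutation p = 0.000315). Insig1 stood apart from Hmgcs1 and Fdft1 in females (r = 0.0336 and 0.0404, adjusted permutation p = 0.880 for both). In males its r was 0.581 with Hmgcs1 and 0.530 with Fdft1 (adjusted permutation p = 0.0532 and 0.0737). With Sqle it was 0.742 in males (adjusted permutation p = 0.00786). The pairs share their libraries and the region content of those libraries. Their permutation p-values are too small as well, since the diet means removed were not allowed for, so the counts of pairs are upper values.

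The other genes of the pathway were counted from lists of the same route and its neighbours, in males unless females are named. The counts of these lists are to be read against the 15.3%, 10.1% and 23.5% of all genes that passed in IleR, LeuR and ValR against Control. Of 15 other enzymes of cholesterol synthesis, 1 rose and 1 fell in IleR against Control in males, 1 rose in LeuR, and 1 rose and 2 fell in ValR, and in ValR against LeuR 3 fell (1.03% of all genes fell). The medians of those 15 were -0.09, 0.24, -0.09 and -0.27 in these 4 comparisons, beside -0.19, 0.28, -0.13 and -0.47 for the 7 genes. Msmo1, a sterol demethylating enzyme, fell in ValR by 0.60 ± 0.14 on the log2 scale (edgeR adjusted p = 0.00779) and had a value of 0.05 in LeuR. Lbr, a sterol reductase that is also a receptor of the nuclear envelope, rose in IleR (0.54 ± 0.16, edgeR adjusted p = 0.0337) and ValR (0.67 ± 0.15, edgeR adjusted p = 0.00504), the opposite direction to Hmgcs1 and Fdft1.

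Among 11 genes of SREBP control, 2 fell in IleR (8.68% of all genes fell), 1 rose in LeuR (3.81% of all genes rose) and 2 fell in ValR (12.4% fell). Srebf2, the SREBP of the cholesterol genes, fell in IleR (-0.75 ± 0.11, edgeR adjusted p = 0.00137) and ValR (-0.77 ± 0.10, edgeR adjusted p = 0.000261), had a value of -0.31 ± 0.11 in LeuR (edgeR adjusted p = 0.0918), and fell in ValR against LeuR (-0.46 ± 0.11, edgeR adjusted p = 0.0491). Erlin1, of the sterol-dependent degradation machinery, fell in IleR (-0.71 ± 0.20, edgeR adjusted p = 0.0290) and ValR (-0.59 ± 0.18, edgeR adjusted p = 0.0320), and its partner Erlin2 rose in LeuR (0.36 ± 0.10, edgeR adjusted p = 0.0366). Of 11 genes of fatty acid synthesis, which SREBP also drives, 1 rose in IleR, 3 in LeuR and 1 in ValR, with 1 fall in ValR. Acly, which makes cytosolic acetyl-CoA, rose in LeuR by a log2 value of 0.78 ± 0.16 (edgeR adjusted p = 0.0135), as did Elovl5, a fatty acid elongase (0.68 ± 0.17, edgeR adjusted p = 0.0218), and Me1, a source of NADPH (0.48 ± 0.13, edgeR adjusted p = 0.0312).

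Beside the 15.3%, 10.1% and 23.5% of all genes that passed in either direction, of 12 genes of cholesterol uptake and intracellular transport 3 rose and 1 fell in IleR, 1 rose in LeuR, and 4 rose and 1 fell in ValR. The fall in both was that of the lipoprotein receptor Scarb1 (-0.60 ± 0.18 in IleR, edgeR adjusted p = 0.0409, and -0.77 ± 0.17 in ValR, edgeR adjusted p = 0.00484). Of 11 genes of efflux, storage and turnover, 4 rose and 1 fell in IleR, 2 rose and 1 fell in LeuR, and 4 rose and 1 fell in ValR. The one that fell in each diet was Cyp46a1, the neuronal enzyme that turns cholesterol into an oxysterol for export, with log2 fold changes of -1.80 ± 0.28 in IleR, -1.13 ± 0.28 in LeuR and -2.06 ± 0.26 in ValR (edgeR adjusted p = 0.00161, 0.0226 and 0.000185). Cyp27a1, another sterol hydroxylase, rose in IleR (1.42 ± 0.37), LeuR (1.34 ± 0.37) and ValR (1.54 ± 0.35), with edgeR adjusted p-values of 0.0207, 0.0379 and 0.00683. The part of region content in the changes of Cyp46a1 and Cyp27a1 was not tested. Of 11 genes of other mevalonate products, 2 rose in IleR, 1 in LeuR and 3 in ValR, where 2 also fell. The prenyltransferase subunit Fntb was among those that rose in ValR (0.66 ± 0.11, edgeR adjusted p = 0.00105). In females 0 genes of the lists passed in edgeR, as of all genes tested, and at an unadjusted p under 0.05 in ValR against LeuR there were 8 of the 15 other synthesis enzymes and 4.98% of all genes.

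**Figure D4:**
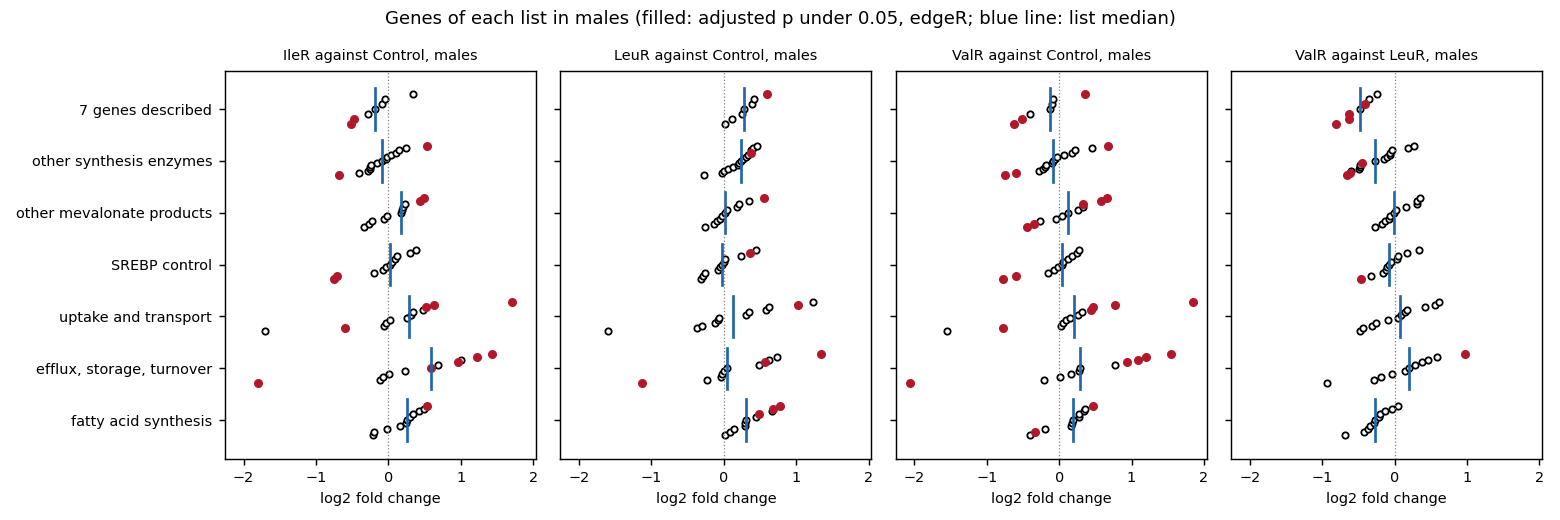
Log2 fold change in males (x axis) of each gene of 7 lists (y axis) in 4 comparisons; red points passed an adjusted p of 0.05 in edgeR and blue lines are list medians. The medians of the 7 genes and of the 15 other synthesis enzymes lie below 0 in IleR and ValR against Control, above 0 in LeuR against Control and below 0 in ValR against LeuR.

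The genes with the pattern most like the 7 were found from the correlation, over the libraries of a sex and after removal of diet means, with the mean standardised log2 CPM of the 7, as a description. In males (14 libraries) they included Msmo1 (r = 0.950) and Nsdhl (0.950), both enzymes of late cholesterol synthesis, Tubb3 (0.940), a tubulin of neurons, and Kif21a, Cyb5d2, Epdr1, Gdi2, Dysf and Pcmt1, with r between 0.932 and 0.939. In females (23 libraries) they included Zmat4 (0.889), Msmo1 (0.889), Kcnab2 (0.881), Epha10 (0.880), Rusc1 (0.873), Kif1a (0.873), Habp4 (0.871), Atp1b1 (0.866) and Mfsd6 (0.864). Msmo1 was named in both sexes.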

How the data were processed

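RNA from the brain of 3xTg mice was sequenced as stranded libraries. The labels name both a polyA and a total RNA kit, which cannot be reconciled from the sources used here. The authors deposited 1 table of expected counts per sex, made on genome build GRCm38.p5 with Ensembl gene identifiers, in which reads shared between genes give values that are not whole. The names of these tables give RSEM as the counter, the aligner is not given in the sources used here, and the submitters' processing notes name R (3.4.3), edgeR and limma. The authors' tables of their own log2 fold changes and p-values were not used. The labels list 6 male samples per diet, of which 2 Control, 3 IleR, 3 LeuR and 2 ValR samples had no column matched to them and were not analysed here. The methods state that outlying samples were dropped after a principal component analysis, and whether these are the same 10 samples is not stated.

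Expected counts were rounded and fitted in R (4.3.3) with edgeR (4.0.16), with TMM scaling and the quasi-likelihood test, per sex over the 4 diets, on genes whose count reached 1 in each library of some diet (22197 genes in males, 20344 in females). The sex difference was fitted over all 37 libraries (22465 genes). Adjusted p-values are Benjamini-Hochberg over all genes tested. Log2 CPM used a prior count of 2. Total counts were 12682687 to 25722333 per male library and 10672599 to 21370973 per female library, which sets the counting error of every value. All 73 pairs of libraries within a group differed by more than sampling noise (chi-square per degree of freedom of at least 8.43). The fit was tested on simulated data. Correlations used residuals from diet means and 100000 permutations, two-sided. The permutations moved residuals across diets and did not allow for the diet means removed. Their p-values are therefore too small, more so in males, which have fewer libraries. Alternatives were other scalings and filters, DESeq2 (1.42.0), limma voom (limma 3.58.1), marker scores as covariates, only the groups compared, and each library left out.

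The 7 genes and all lists were chosen with earlier results of these data known. From each pathway list, up to 3 genes with the largest change among those that passed against Control may be named, and per sex the 10 genes most like the 7. Some genes of that rule are not reported here.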

Additional observations from a re-analysis of the deposited data

Results flagged for a closer look

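In 4 of 42 groups of 4 to 6 libraries, 1 library stood apart from the others by Dixon's test, and chance alone gives about 1 in 20 independent groups. The groups are not independent, since the genes share their libraries and some vary together, so the 2 shares cannot be compared directly. Female Control 30 was the lowest of its 6 libraries for 3 enzymes, with 128.8 CPM of Hmgcs1, 39.72 CPM of Sqle and 46.84 CPM of Fdft1. Its hindbrain score, -0.204, was the highest of the female Control libraries, whose other scores were -7.40 to -1.92, and the part of region content in these 3 values was not tested. Male ValR 10 was the highest of its 4 libraries for Idi1, with 63.69 CPM, and reads of Idi1 are shared with another gene.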

How the results depend on the processing

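The count of the 7 genes that passed is given against its value in the report. For IleR against Control in males (2) it was 1 with upper quartile scaling, with no filter on low counts and with the oligodendrocyte score as a covariate, 0 with the hindbrain score, and 0 to 2 with 1 library left out. For LeuR against Control in males (1) it was 2 with upper quartile scaling and by DESeq2, 0 with either score and when only the groups compared were fitted, and 0 to 3 with 1 library left out. For ValR against Control in males (3) it was 0 with the hindbrain score, which also turned Insig1 to -0.392, 2 with upper quartile scaling and with no filter, 4 with filterByExpr, by DESeq2 and when only the groups compared were fitted, 3 with the oligodendrocyte score (Sqle in place of Insig1), and 2 to 3 with 1 library left out. For ValR against LeuR in males (4) it was 0 with the hindbrain score and when only the groups compared were fitted, and 0 to 4 with 1 library left out. For IleR against LeuR in males (0) it was 1 by DESeq2. For the sex difference in LeuR (0) it was 1 by DESeq2, 2 with the hindbrain score, and 0 to 1 with 1 library left out (1 without male Control 4 or male LeuR 20). For the sex difference in ValR (0) it was 2 by DESeq2, 1 when only the groups compared were fitted, 3 without the 6 female libraries with a hindbrain score above -2, a choice made after seeing the data, and 0 to 2 with 1 library left out (1 without female Control 26 or female LeuR 45, and 2 without female ValR 36). Fewer libraries in a fit leave a wider error, and otherwise the cause was not tested. In ValR against IleR in males, in the 6 female comparisons and for the sex difference in IleR, the count was 0 under every alternative run. No paired analysis was possible because every library number is used once and none is shared between groups. Depth limits Dhcr7 most, at a lowest expected count of 259.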
